A study of Danio rerio with 8 samples.

Results

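The Myc, Max and Mxd family was defined by 10 zebrafish symbols, myca, mycb, mycn, mych, max, mxi1, mxd1, mxd3, mxd4 and mlx, looked up among the 28272 Ensembl gene rows of a table of read counts. Rows were found for 9 of them, and mxd3 was not analysed here. The symbol table lacks the paralog letters of myca and mycb, and names 2 rows MYC without saying which is which. ENSDARG00000007241 is therefore called the high-count MYC row and ENSDARG00000045695 the low-count MYC row. Each of the 9 rows passed the filter on low counts.

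The study compared RNA-seq libraries of EGFP-positive, unpigmented cells sorted from adult zebrafish, 4 labelled scale melanocytes and 4 labelled melanoma. Alleles shared by the fish of both groups included BRAFV600E driven by the mitfa promoter, EGFP under that promoter, and the alb(b4) mutation at a locus needed for melanin. BRAFV600E is an activated form of the BRAF kinase, and mitfa is a promoter of the melanocyte lineage. Only the cell type on the label separated the groups. Whether each library had its own fish is not stated, so the tests weigh differences against a spread among libraries that may be technical. The name of replicate 3 stands on 2 scale columns and that of replicate 4 on none, so these are told apart as columns 3a and 3b in table order.

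Myc proteins are transcription factors that bind DNA at E-boxes as dimers with Max, and they are known for driving growth, ribosome production and division. Mxd proteins, Mxi1 and Mnt compete with Myc for Max and recruit Sin3 and histone deacetylases, which silence the same kind of site. Mlx is a Max-like partner used by the Mondo proteins, which respond to glucose. Mycn is active in the neural crest of the embryo, from which pigment cells arise, and is a known oncogene of human neuroblastoma.

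Levels are in CPM, reads for each 1000000 reads of a library, after TMM scaling, which corrects for differences in library composition. A mean is followed by its SD over the n = 4 libraries of a group. A change is the log2 ratio of melanoma to scale, with an approximate SE, fitted by edgeR's quasi-likelihood test to 26749 genes with p-values adjusted by Benjamini-Hochberg, and a gene is called at an adjusted p under 0.05. CPM is not corrected for gene length, so levels of different genes are not compared.

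Libraries held 86888494 to 100270657 counts. TMM factors were 0.467 to 0.874 in scale libraries and 1.37 to 1.67 in melanoma, and scale replicate 2 and column 3b, called the less complex libraries below, had the fewest genes at 10 counts or more (22836 and 22537, against 24832 to 26706 in the others). Summed shares of pigment cell markers and of epidermal markers did not overlap between the groups, while those of the other cell type lists did. The 13 epidermal markers took 4.78% to 5.86% of counts in scale libraries and 0.0649% to 0.134% in melanoma, and the 14 pigment cell markers 0.00531% to 0.0106% against 0.357% to 1.80%. In the libraries labelled scale melanocytes, pigment cell markers thus took a smaller share, and epidermal ones a larger share, than in melanoma. These differences go against the label. Of the 14 pigment cell markers 11 were called higher in melanoma and 0 lower, beside 21.7% and 15.2% of all tested genes. Among them sox10 was at 0.724 ± 0.355 CPM in scale libraries and 302 ± 116 CPM in melanoma. Scale levels below are those of the labelled libraries and are not taken as levels of melanocytes. The 14 scale bone and fibroblast markers took 0.0459% to 0.466% against 0.00480% to 0.0830%, and the 8 immune and blood markers 0.134% to 0.210% against 0.0398% to 0.444%. The 0.0830% was that of melanoma replicate 1, where mmp9 alone was 468 of the list's 497 CPM. In the other melanomas mmp9 was at 15.3 to 28.1 CPM. Of these 14 markers 12 were called lower in melanoma and 1, mmp9, higher, beside 15.2% and 21.7% of all tested genes. For 11 of them every melanoma library lay below every scale library, as for 15.2% of all tested genes. No listed marker was at 0 in every library of a group. These are bulk samples, so fewer cells of a type and less RNA per cell cannot be told apart, and the part of cell makeup in any difference below was not tested.

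One family member rose in melanoma and 1 fell. The riser was mycn and the faller the high-count MYC row, while the low-count MYC row, mych, max, mlx, mxi1, mxd1 and mxd4 did not pass the test. That is 1 of 9 higher and 1 of 9 lower, where 21.7% of all tested genes were called higher and 15.2% lower. The groups did not overlap for the same 2 members, against 36.9% of all genes. The family's median log2 change was -0.12, beside 0.05 over all tested genes. A p above the threshold does not show that the remaining 7 were equal in the groups.

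**Figure D1:**
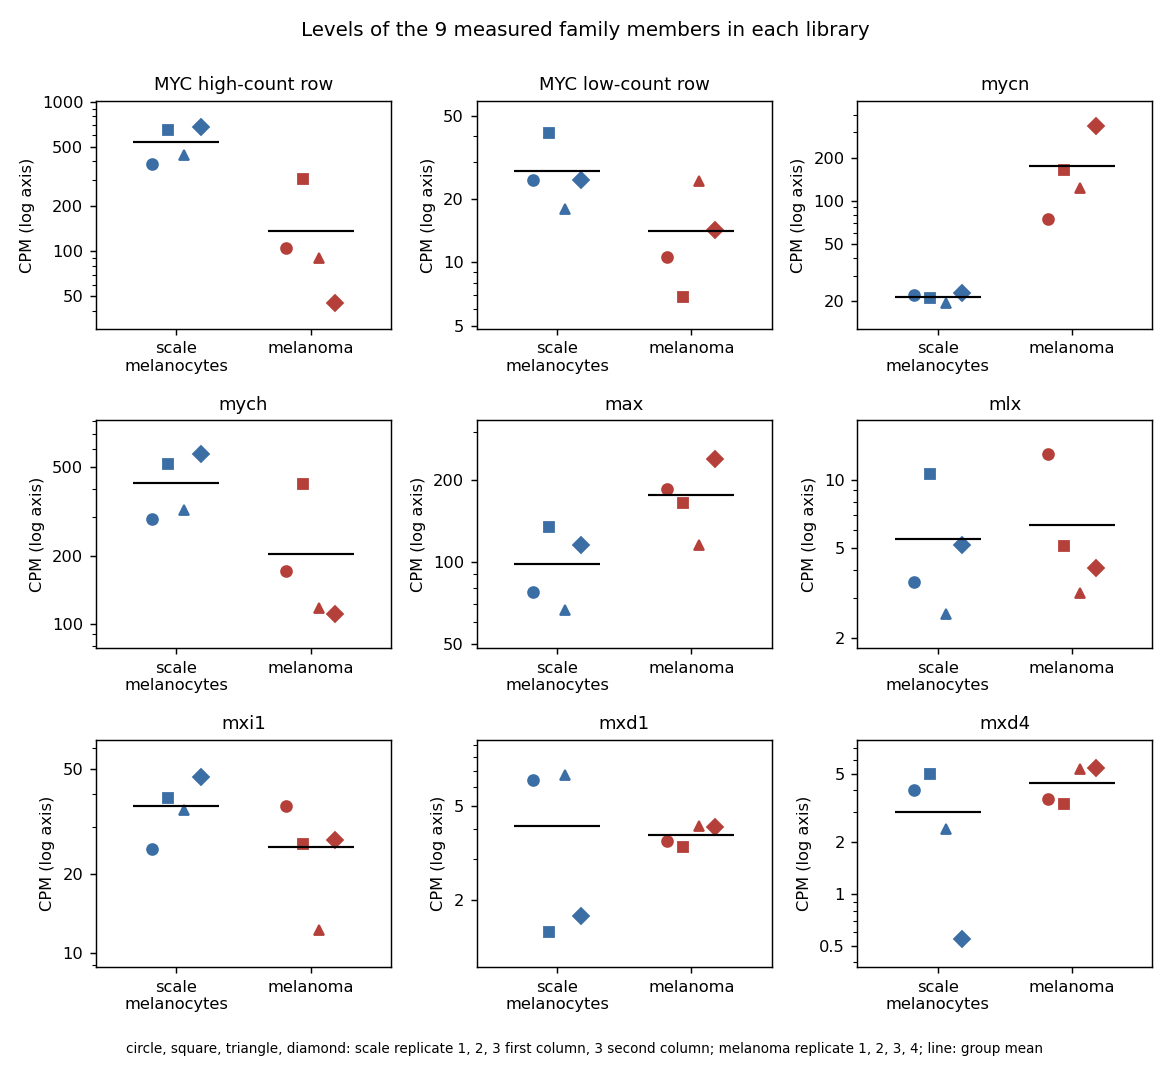
Level of each measured family member in CPM, on log axes, in the 4 scale melanocytes and 4 melanoma libraries (points), with the group means as lines. The melanoma points of mycn lie above every scale point, those of the high-count MYC row lie below, and the groups overlap for the other members.

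The gene mycn (ENSDARG00000006837) encodes the N-Myc transcription factor. It stood at 21.9, 21.2, 19.3 and 22.9 CPM in scale replicates 1 and 2 and columns 3a and 3b. In melanoma replicates 1 to 4 it stood at 75.3, 165, 124 and 331 CPM. The scale libraries lay close together, and the lowest melanoma library was far above the highest of them. The means were 21.3 ± 1.53 CPM and 174 ± 111 CPM, a melanoma mean 8.15 times the scale mean and a log2 change of 3.03 ± 0.47 (edgeR adjusted p = 0.000464). The spread was wider among melanomas, with a highest-to-lowest ratio of 4.40 against 1.19 among scale libraries. Melanoma replicate 4 was the highest, and without it the change was 2.52 (adjusted p = 0.000972).

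The high-count MYC row is 1 of 2 rows for zebrafish counterparts of c-Myc, the founding member of the family and an immediate early gene in mammalian cells. Its level was 384, 644, 438 and 680.4 CPM in the scale libraries, in the same order as above, and 105, 305, 90.2 and 45.3 CPM in melanoma replicates 1 to 4. Every melanoma library lay below every scale library, with melanoma replicate 2 close to the lowest of them. The means were 537 ± 147 CPM and 136 ± 115 CPM, a scale mean 3.94 times the melanoma mean and a log2 change of -1.98 ± 0.56 (edgeR adjusted p = 0.0161). Without melanoma replicate 2 the change was -2.73 (adjusted p = 0.00181). The call was not kept without scale replicate 2 and column 3b together (-1.60, adjusted p = 0.0994) or with total counts in place of TMM (-0.80, adjusted p = 0.186). Beside this fall stand 21 genes of immediate early and heat shock response, many of which rise when cells are dissociated. Together they took 9.21% to 13.7% of counts in scale libraries and 0.712% to 1.32% in melanoma. This share includes heat shock genes such as hsp70.3 (33969 against 462 CPM), so it is not one of immediate early genes alone. Of the 21 genes 16 were called lower and 1 higher, beside 15.2% and 21.7% of all tested genes. Their part in the MYC difference was not tested.

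The low-count MYC row was at 24.5, 41.2, 17.9 and 24.8 CPM in the scale libraries and at 10.6, 6.87, 24.5 and 14.3 CPM in melanoma. Here 3 of 4 melanoma libraries lay below every scale library, and replicate 3 lay among them. Its means of 27.1 ± 9.91 and 14.1 ± 7.56 CPM gave a log2 change of -0.95 ± 0.44 (edgeR adjusted p = 0.109). Without melanoma replicate 3 the row was called lower (-1.35, adjusted p = 0.0357). Both MYC rows are paralogs, so reads from alike stretches may have been shared or lost between them.

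The gene mych (ENSDARG00000077473) encodes a Myc protein of fish that in zebrafish embryos is needed for survival of neural crest cells. It was at 293, 515, 323 and 571 CPM in the scale libraries and at 173, 421, 118 and 111 CPM in melanoma. Melanoma replicate 2 lay within the scale range and the other 3 below it. The means were 426 ± 138 and 206 ± 146 CPM, with a log2 change of -1.05 ± 0.50 (edgeR adjusted p = 0.117). Leaving out melanoma replicate 2 gave -1.66 and a call (adjusted p = 0.015), limma-voom also called it (-1.22, adjusted p = 0.0489), and with total counts alone the sign turned (0.16). In CPM the libraries stood in the same order for mych as for the high-count MYC row within the scale group and within melanoma. In the scale group the highest were replicate 2 and column 3b, whose TMM factors were the lowest (0.467 and 0.538), which raises the CPM of every gene. Before scaling, column 3a had more counts than 3b on the MYC row (35901 and 32443) but fewer on mych (26482 and 27204).

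**Figure D2:**
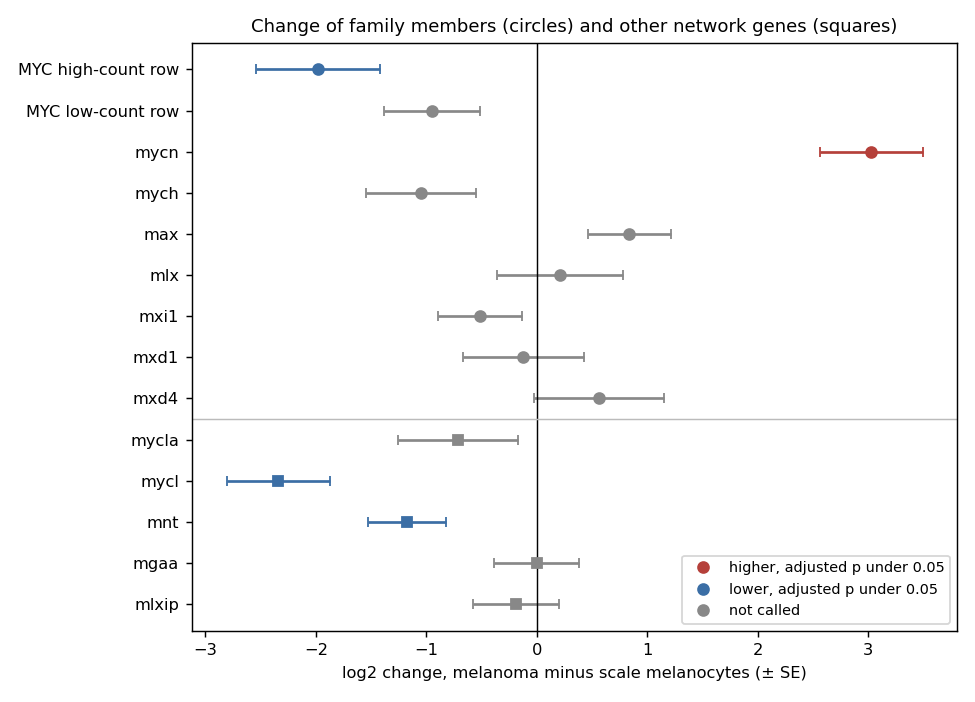
Log2 change of the 9 family members (circles) and 5 other network genes (squares), melanoma minus scale melanocytes, with SE bars. Calls at an adjusted p under 0.05 are red for mycn (3.03) and blue for the high-count MYC row (-1.98), mycl (-2.34) and mnt (-1.17). The sign of mych, mxi1, mxd1, mycla, mgaa, mlxip and the low-count MYC row turns when total counts replace TMM, and that of mlx under upper quartile scaling.

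How Myc reads were divided among the 4 Myc rows can be read within a library, free of any scaling between libraries. Gene length is fixed, so a shift in a share between libraries is not set by it, although a share is not a share of molecules. The mycn row held 3.03%, 1.73%, 2.41% and 1.76% of these reads in the scale libraries and 20.7%, 18.3%, 34.7% and 66.1% in melanoma replicates 1 to 4. The high-count MYC row held 53.0%, 52.7%, 54.9% and 52.4% in the scale libraries and 28.9%, 33.9%, 25.3% and 9.03% in melanoma. Both shares were separate between the groups, in opposite directions. The shares are parts of the same total, so a larger mycn share by itself lowers the others. Their opposite directions are therefore not separate observations, and these rows are the members already called above. Among the scale libraries the share of the high-count MYC row lay within 52.4% to 54.9%, and the mycn share was lowest in the less complex pair (1.73% and 1.76%). Melanoma replicate 4 had the highest mycn share and the lowest share of the high-count MYC row.

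**Figure D3:**
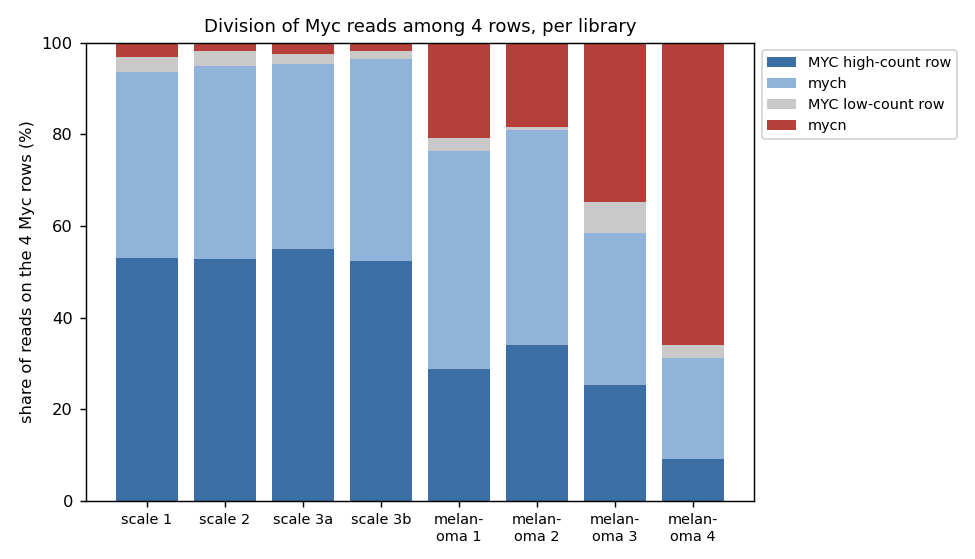
Share of the reads on 4 Myc rows held by each row, in percent, for each of the 8 libraries (stacked bars). The mycn share is 1.73% to 3.03% in scale libraries and 18.3% to 66.1% in melanoma.

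The mych row held 40.5% to 43.9% of Myc reads in the scale libraries and 47.5%, 47.0%, 33.2% and 22.0% in melanoma, so the groups overlapped in rank although no melanoma share fell inside the scale range. Relative to the high-count MYC row, mych had 0.738 to 0.839 reads per MYC read in scale libraries and 1.31 to 2.44 in melanoma. The mycn row had 0.0329 to 0.0571 reads per read of the high-count MYC row in scale libraries, and 0.717, 0.540, 1.37 and 7.32 in melanoma replicates 1 to 4. Summed over the 4 Myc rows, the level was 724 to 1299 CPM in scale libraries and 357 to 898 CPM in melanoma, and the groups overlapped. These sums are descriptions and carry no test.

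The gene max (ENSDARG00000024844) encodes the partner that Myc, Mxd and Mnt proteins share. It was at 77.4, 134, 66.7 and 115 CPM in the scale libraries and at 185, 164, 115 and 239.6 CPM in melanoma. All but melanoma replicate 3 lay above every scale library. The means were 98.4 ± 31.7 and 176 ± 51.6 CPM, with a log2 change of 0.84 ± 0.38 (edgeR adjusted p = 0.1). With total counts alone max was called higher (2.11, adjusted p = 0.000238). Without the less complex scale libraries its change was 1.26, not called (edgeR adjusted p = 0.0536). Within a library, max had 0.107, 0.110, 0.0836 and 0.0887 reads per read on the 4 Myc rows in the scale group and 0.510, 0.183, 0.322 and 0.478 in melanoma. That ratio did not overlap between the groups. Of single genes 36.9% did not overlap, and how often ratios of other genes do so was not tested.

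The Mxd members, whose products act as repressors with Max, gave no call. The gene mxi1 (ENSDARG00000040884) was at 24.8 to 46.2 CPM in scale libraries and 12.3 to 36.0 CPM in melanoma, with overlap (log2 change -0.52 ± 0.38, edgeR adjusted p = 0.308). Melanoma replicate 3 was its lowest library. With a filter of 5 CPM it was called lower (-1.07, adjusted p = 0.0357). The gene mxd1 (ENSDARG00000032039), which in mammals is induced as cells differentiate, was at 6.44, 1.47, 6.76 and 1.72 CPM in scale libraries and 3.57, 3.35, 4.10 and 4.08 CPM in melanoma. Its low values were those of the less complex scale libraries, with 66 and 82 counts, and the melanoma libraries lay between the low and the high pair. The change was -0.12 ± 0.55 (edgeR adjusted p = 0.88). Without the less complex scale libraries it was -0.84 ± 0.36, also not called (edgeR adjusted p = 0.098). The gene mxd4 (ENSDARG00000054031) was at 0.545 to 4.98 CPM in scale libraries and 3.34 to 5.38 CPM in melanoma, with overlap (0.56 ± 0.59, edgeR adjusted p = 0.475). Its lowest value, from column 3b, rested on 26 counts, the fewest of any member in any library. Per read of max, the 3 Mxd rows together had 0.335 to 0.661 reads in scale libraries and 0.151 to 0.233 in melanoma, without overlap. Per read on the 4 Myc rows they had 0.0368 to 0.0552 against 0.0363 to 0.119, and overlapped. Most Mxd reads were of mxi1, with 1734 counts in scale replicate 2 beside 66 for mxd1 and 224 for mxd4. In melanoma replicate 3 the counts were 1796, 601 and 776. Neither mxi1 nor max was called. Of single genes 36.9% did not overlap, and how often ratios of other genes do so was not tested.

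The gene mlx (ENSDARG00000037891) was at 3.52, 10.6, 2.54 and 5.16 CPM in scale libraries and at 13.0, 5.09, 3.16 and 4.08 CPM in melanoma. The highest value of each group was 1 library apart from the rest, scale replicate 2 and melanoma replicate 1. Its change was 0.21 ± 0.57 (edgeR adjusted p = 0.792), and the sign turned without melanoma replicate 1 (-0.40). In the RefSeq annotation of assembly GRCz12tu, mlx overlaps the gene psmc3ip, and mxd4 overlaps 1 other gene annotated as protein-coding. mycn and mxd1 each overlap 1 noncoding gene. The counts are per Ensembl gene with build Zv9 named, and whether these overlaps held in that annotation was not tested. No strand setting is stated for the counting, so where they did hold, reads of such pairs cannot be told apart.

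The choice of scaling moved all members together. Over all tested genes the median log2 change was 0.05 with TMM, -0.06 with RLE, -0.06 with the authors' size factors, -0.39 with upper quartile and 1.17 with total counts alone. Measured from that median, mycn stood at 2.95 to 3.02 over these 5 scalings and the high-count MYC row at -2.06 to -1.97. On the same footing, mych stood at -1.14 to -1.01, the low-count MYC row at -1.06 to -0.87 and max at 0.74 to 0.94. The widest range among the 9 members was 0.33, for mlx. With upper quartile scaling 3 members were lower (21.2% of all tested genes), and with total counts alone 0 were lower (6.65%) and 3 higher (40.6%), namely mycn, max and mlx. Lower members numbered 2 with limma-voom (16.1% of all genes), 0 at an adjusted p of 0.01 (9.02%) and 0 without the less complex scale libraries (17.8%). With a filter of 5 CPM, which mxd4 and mlx did not pass, 4 of 7 tested members were lower (26.9% of the genes tested there).

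**Figure D4:**
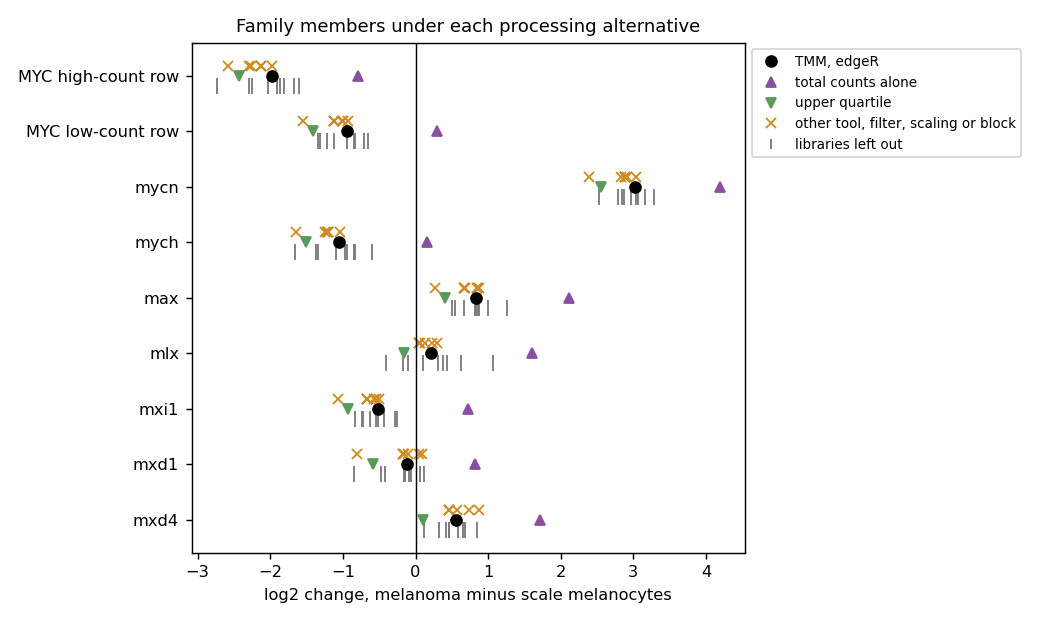
Log2 change of each family member, melanoma minus scale melanocytes, as reported (black) and under other scalings, tools, filters and left-out libraries. Values for mycn run from 2.39 to 4.19 and those of the high-count MYC row from -2.73 to -0.80, and total counts alone shifts every member upward, turning the sign of mych (0.16), mxi1 (0.72), mxd1 (0.81) and the low-count MYC row (0.30).

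Of the 5 other measured genes of the Max and Mlx network, 2 were called lower and 0 higher, beside 15.2% and 21.7% of all tested genes, and 5 rows are too few to read as a group. The row named MYCL (ENSDARG00000034956, mycl here), for a counterpart of L-Myc, was at 17.9, 24.98, 35.9 and 39.7 CPM in the scale libraries and at 2.34, 9.26, 7.03 and 4.76 CPM in melanoma. The groups did not overlap, and the log2 change was -2.34 ± 0.47 (edgeR adjusted p = 0.00224). The row named MNT (ENSDARG00000073988), for a broadly expressed repressor partner of Max, was at 10.7, 12.9, 14.0 and 9.90 CPM against 6.001, 6.75, 3.82 and 4.48 CPM, also without overlap. Its change of -1.17 ± 0.35 (edgeR adjusted p = 0.0213) was not called without melanoma replicate 3 (adjusted p = 0.0651) or replicate 4 (0.0651), or with total counts alone (-0.04, adjusted p = 0.953). The L-Myc paralog mycla had a change of -0.71 ± 0.54 and the Mondo gene mlxip, whose product pairs with Mlx, one of -0.19 ± 0.39 (adjusted p = 0.321 and 0.731). Without melanoma replicate 4 mycla stood at -1.37 (adjusted p = 0.0634). The gene mgaa, for a large Max partner with its own DNA-binding domain, was at 18.1 ± 8.94 and 18.1 ± 1.75 CPM (edgeR adjusted p = 0.999), and with total counts alone it was called higher (1.29, adjusted p = 0.00797).

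Genes reported as activated by MYC in human cells were higher in melanoma in most cases. Of 58 tested rows 39 were called higher, 3 lower and 16 neither, with a median log2 change of 2.03 beside 0.05 over all tested genes. Of all tested genes 21.7% were called higher and 15.2% lower. Many of them make ribosomes. The 3 with the smallest p were wdr74 (3.59 ± 0.827 against 28.6 ± 8.72 CPM), noc4l (3.32 ± 0.506 against 31.5 ± 14.8 CPM) and mphosph10 (2.56 ± 0.638 against 23.1 ± 7.78 CPM), all of which act in ribosome assembly. Their log2 changes were 2.995, 3.24 and 3.17 (edgeR adjusted p = 0.000143, 0.000145 and 0.000179). Named after their values were seen, the nucleolar gene npm1a changed by 2.72, the spermidine synthase gene srm by 3.33 and the small nucleolar RNP gene dkc1 by 2.97 (adjusted p = 0.000513, 0.000233 and 0.000294). The gene ncl, chosen likewise, changed by 1.23, a call kept under only 9 of the 19 alternatives described below. The ornithine decarboxylase gene odc1 and the pyrimidine synthesis gene cad, textbook MYC targets chosen likewise, had changes of -0.70 ± 0.76 and -0.63 ± 0.36 (edgeR adjusted p = 0.489 and 0.186).

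The 3 lower rows were tmem97 and both rows named mat2a. tmem97, a gene of sterol handling, fell from 144 ± 71.1 to 1.28 ± 0.688 CPM (log2 change -6.81 ± 0.70, edgeR adjusted p = 4.23e-05). The mat2a rows, for the enzyme that makes S-adenosylmethionine, fell by 6.86 (ENSDARG00000037121) and 2.49 (ENSDARG00000040334) on the log2 scale (adjusted p = 4.31e-05 and 0.00129). Over the 58 rows the summed share of counts was 0.229% to 0.256% in scale libraries and 0.620% to 0.840% in melanoma, but in TMM-normalized CPM the sums overlapped, at 2722 to 5446 and 3714 to 5403.3 CPM. Of 17 markers of cell division 16 were also called higher, beside 21.7% of all tested genes. Their summed level was 65.9 to 124 CPM in scale libraries and 175, 943, 1616 and 1191 CPM in melanoma replicates 1 to 4. Unlike the CPM sums of the activated targets, these did not overlap between the groups. Melanoma replicate 1 was lowest among melanomas for these markers and for mycn. It also had the lowest share of pigment cell markers among melanomas (0.357% of counts). Its shares of immune and blood (0.444%), scale bone and fibroblast (0.0830%) and epidermal markers (0.134%) were the highest among melanomas. In that replicate mmp9 alone made up 468 of the 497 CPM summed over the scale bone and fibroblast markers. The part of division or of cell makeup in the list's counts was not tested.

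**Figure D5:**
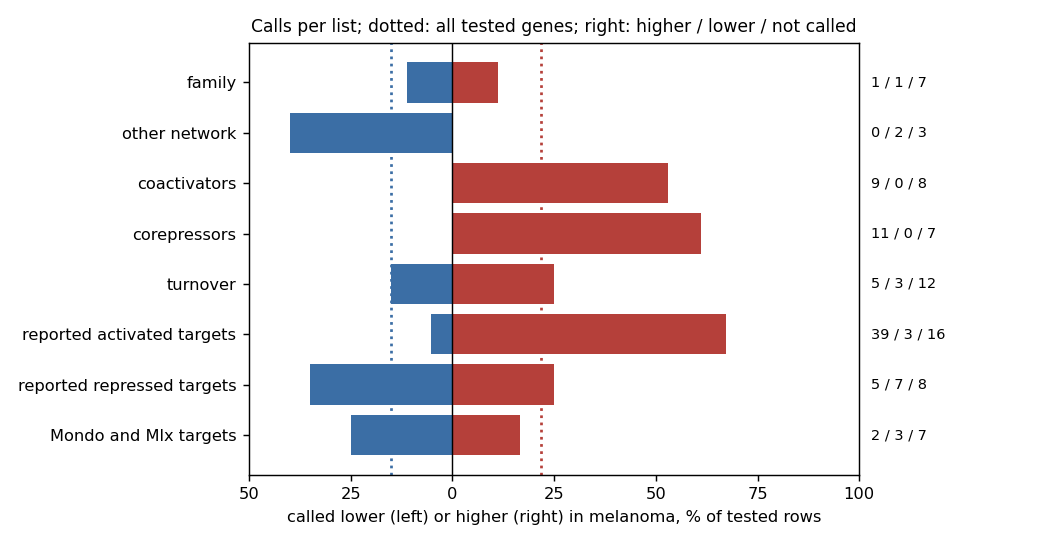
Percent of tested rows called lower (left) or higher (right) in melanoma for the family and 7 lists, with counts of higher, lower and not called at the right and dotted lines for all tested genes (21.7% and 15.2%). The activated targets stand at 39 of 58 higher, the family at 1 of 9.

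Of 20 rows for genes reported as repressed by MYC, 5 (25%) were called higher and 7 (35%) lower, and their median log2 change was -0.43. Over all tested genes 21.7% were higher and 15.2% lower, so the higher share is near the background. The cell cycle inhibitor cdkn1a fell from 31.3 ± 12.7 to 5.77 ± 2.10 CPM (log2 change -2.44 ± 0.42, edgeR adjusted p = 0.000897). The matrix genes thbs1 (ENSDARG00000010785) and col1a2 changed by -4.76 and -8.85 (adjusted p = 0.00075 and 0.00101). col1a2 is also on the list of scale bone and fibroblast markers, 12 of 14 of which were lower. Without melanoma replicate 1 thbs1 stood at -5.47, and col1a2 at -10.12 without melanoma replicate 4, -9.50 without scale replicate 1, -9.45 without scale replicate 2 and -8.04 without column 3b. In the other direction ndrg1 (ENSDARG00000032849), a stress-response gene, rose from 47.4 ± 37.4 to 746 ± 413 CPM (3.98 ± 0.65, edgeR adjusted p = 0.000675). The Wnt inhibitor gene dkk1a (1.77) and the cell cycle inhibitor gene cdkn1ca (1.96) were called higher too. Neither was called without scale replicate 1 (adjusted p = 0.0818 and 0.0751), scale replicate 2 (0.0766 and 0.0695) or column 3a (0.083 and 0.0961), nor cdkn1ca without melanoma replicate 3 (0.0548). Without the less complex scale libraries the changes were 2.41 and 2.79. The count of higher rows was 1 without scale replicate 1, 2 without scale replicate 2 or column 3a, and 3 without melanoma replicate 3.

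Among cofactors on both sides of the network, calls were in the higher direction and 0 were lower, where 21.7% of all tested genes were higher and 15.2% lower. Of 17 rows for proteins that work with Myc at chromatin, 9 were higher, with a median log2 change of 1.54. They included the ATPase gene ruvbl1 (8.41 ± 3.31 against 54.5 ± 8.13 CPM, log2 change 2.70), and actl6a (2.22) and dmap1 (1.99), for subunits of the same acetyltransferase complex (edgeR adjusted p = 0.000292, 0.000936 and 0.0013). Of 18 rows for Sin3 and deacetylase subunits, which Mxd proteins recruit, 11 were higher, with a median of 1.15. The scaffold gene sin3b (4.38 ± 1.08 against 25.9 ± 7.01 CPM), suds3 (7.64 ± 4.17 against 54.0 ± 16.7 CPM) and the deacetylase gene hdac1 (71.8 ± 16.2 against 476 ± 214 CPM) led them. Their changes were 2.56, 2.82 and 2.73 (edgeR adjusted p = 0.000285, 0.000512 and 0.00072). The count of higher corepressor rows was 7 without column 3a.

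Of 20 rows for enzymes that act on Myc protein, 5 (25%) were called higher and 3 (15%) lower, shares near those of all tested genes (21.7% and 15.2%), with a median of 0.60. The values that follow are therefore those of single genes. The kinase gene gsk3bb, whose product in mammals phosphorylates Myc ahead of its destruction, was at 44.6 ± 10.4 CPM in scale libraries and 1.49 ± 0.180 CPM in melanoma. Its log2 change was -4.90 ± 0.37 (edgeR adjusted p = 9.22e-06). The row named gsk3b (ENSDARG00000017803), named after its values were seen, went the other way, from 29.8 ± 5.52 to 77.8 ± 49.6 CPM (adjusted p = 0.0236). The ubiquitin ligase gene fbxw7, which marks Myc for the proteasome, was at 44.9 ± 3.68 against 23.0 ± 4.79 CPM (-0.96 ± 0.31, edgeR adjusted p = 0.0271). That call was lost without melanoma replicate 1 (adjusted p = 0.0512), 2 (0.0634) or 4 (0.0645), and with total counts alone the sign turned (0.16). The deubiquitinase gene usp28 changed by -1.84, a call lost without column 3a (adjusted p = 0.0583), melanoma replicate 2 (0.0536) or melanoma replicate 4 (0.0572). It was also lost with total counts alone (-0.86, adjusted p = 0.348). Without the less complex scale libraries usp28 stood at -2.49. Higher were the cullin gene cul1a (2.08), the deubiquitinase gene usp37 (2.31) and cip2a (3.14), whose product in human cells protects MYC from dephosphorylation (edgeR adjusted p = 0.000532, 0.00201 and 0.00235). Without scale replicate 1, scale replicate 2, column 3a or melanoma replicate 2, 3 rows of this list were higher, and without melanoma replicate 2 or 4, 1 was lower.

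Of 12 rows for reported targets of Mondo and Mlx, 2 (16.7%) were called higher and 3 (25%) lower, beside 21.7% and 15.2% of all tested genes, with a median of -0.45. The list holds too few rows to be read as a group. Lower were the lipid synthesis genes fasn (260.5 ± 99.3 against 11.5 ± 4.38 CPM, log2 change -4.51) and acaca (-2.09), with edgeR adjusted p = 4.4e-05 and 0.0018. tbc1d2 was also lower (-1.07, adjusted p = 0.0311). It was not called without scale replicate 2 (0.0576), column 3a (0.0698), melanoma replicate 3 (0.0874) or 4 (0.0905), and turned in sign with total counts alone (0.076). The 2 higher rows, named after their values were seen, were 1 of 2 named txnip (ENSDARG00000036107, 2.77 ± 0.65), for an arrestin-like inhibitor of glucose uptake, and 1 of 2 named arrdc3 (ENSDARG00000036028, 2.89 ± 0.54), with edgeR adjusted p = 0.0058 and 0.00154. Without melanoma replicate 1 the txnip change was 1.75.

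Likeness to the called members was measured as the root mean square distance between centred log2 CPM profiles over the 8 libraries, among 11006 genes with an unambiguous symbol and a mean of at least 1 CPM. The profiles nearest to mycn were those of csrp2, for a LIM-domain protein (distance 0.299; 8.57 against 58.4 CPM), and pisd, for a mitochondrial phospholipid enzyme (0.312; 9.42 against 55.4 CPM). Nearest to the high-count MYC row were the growth arrest gene gadd45a (0.318; 105 against 36.1 CPM) and the mechanosensitive channel gene piezo1 (0.324; 94.8 against 19.8 CPM). gadd45a is also on the list of repressed targets. The profiles span both groups, so a gene near a called member largely shares its difference between the groups. The log2 changes were 2.77 for csrp2, 2.56 for pisd, -1.54 for gadd45a and -2.26 for piezo1. Likeness within a group was not measured.

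Neighbours on the chromosome were taken from the GRCz12tu annotation as the 2 nearest protein-coding genes on each side. Beside mycn stands ddx1, an RNA helicase gene whose human counterpart neighbours MYCN too. It was at 6.92, 10.4, 6.91 and 7.32 CPM in scale libraries and at 20.01, 34.97, 31.6 and 49.3 CPM in melanoma replicates 1 to 4. The groups did not overlap for ddx1, as for 36.9% of all tested genes, and its log2 change was 2.11 ± 0.37 (edgeR adjusted p = 0.00102). A higher call was made for 21.7% of all tested genes. Melanoma replicates 1 and 4 were the lowest and highest for ddx1 as for mycn. Melanoma replicate 1 also differed from the other melanomas in its shares of pigment cell, immune and blood, and epidermal markers, as given above. On the other side the nearest gene, smek1, had no matched row. The second gene there, erh, did not pass (-0.56, adjusted p = 0.32), and DNA copies were not measured. Next to mych, all 4 neighbours (romo1, ergic3, mtss1 and osgn1) lay between -0.60 and 0.37 and did not pass. Near mxd4, pdcd4a (2.34), gpank1 (1.497) and toporsa (1.73) were called higher, while ndufb6 (0.66, adjusted p = 0.277) and mxd4 were not. Of all tested genes 21.7% were called higher, and these neighbours are too few to read as a region. The toporsa call was close to the threshold (edgeR adjusted p = 0.0473), with 1.41, 0.156, 1.06 and 1.51 CPM in the scale libraries. The measured neighbours of max (fntb, rab15 and slc10a1), mxd1 (neff1, snrnp27 and add2) and mlx (psmc3ip and retreg3) did not pass the test.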

How the data were processed

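RNA from sorted EGFP-positive cells was extracted with Trizol and sequenced from TruSeq libraries, as the labels' protocols say. The deposited counts are whole reads per Ensembl gene. A second deposited table holds normalized signal, which the authors made by scaling each library's counts by a constant, and was used for those constants alone. The submitters' processing notes name STAR 2.3, HTSeq, DESeq2 and build Zv9. Roles, strand setting and treatment of reads with several alignments were not given in the sources used here. The smallest row sum was 40, so rows with very low counts are not in the table used here. 1 further allele shared by all fish is not reported here.

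Both columns named replicate 3 were used as scale melanocytes without a number. Symbols were matched for 19599 of 28272 identifiers, regardless of case, and without the paralog letter where the symbol table lacks it. Genes kept by filterByExpr were tested with edgeR 4.0.16 in R 4.3.3, with TMM scaling and a model of group. Each SE was derived from the log2 change and its F statistic. The members, lists and tests were chosen with earlier results of these data known, so counts over lists are descriptions. Named from each list were up to 3 called genes per direction by p with an unambiguous symbol, and other genes are marked as named after their values were seen. The 19 alternatives covered scaling, DESeq2 1.42.0, limma-voom 3.58.1, filters, a threshold of 0.01, the replicate number and left-out libraries. No protein or promoter sequences were used here. Python 3.11.15, pandas 2.3.3 and matplotlib 3.10.9 made tables and figures.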

Additional observations from a re-analysis of the deposited data

How the results depend on the processing

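The rise of mycn was called under all 19 alternatives (2.39 with the 5 CPM filter to 4.19 with total counts alone), as was the fall of mycl. The count of members called higher was 1 under each alternative but total counts alone, which gave 3, and was 1 whichever library was left out. The count called lower was 3 with upper quartile scaling, 0 with total counts alone, 2 with limma-voom and 0 at an adjusted p of 0.01. It was 4 of 7 tested with the 5 CPM filter, 0 without the 2 less complex scale libraries, and 1 to 2 with 1 library left out. Activated targets called higher numbered 33 to 51, and those called lower 3 to 5, with 5 under upper quartile scaling. Total counts alone turned the low-count MYC row (0.30), mych (0.16), mxi1 (0.72), mxd1 (0.81), mycla (0.58), mgaa (1.29), mlxip (0.93), fbxw7 (0.16) and tbc1d2 (0.076), and shifted all genes upward. mxd1 also turned with limma-voom (0.092), with the replicate block (0.046) and without scale replicate 1 (0.064) or column 3a (0.11), in a range of -0.47 to 0.11 with 1 library left out. mlx turned with upper quartile scaling (-0.16) and without scale replicate 1 (-0.11), column 3a (-0.18) or melanoma replicate 1 (-0.40). mgaa, near 0, turned with limma-voom (0.16), no filter (0.0099), the replicate block (0.053), and without column 3b (0.27), melanoma replicate 2 (0.041) or 4 (0.046), or the 2 less complex libraries (0.63), and ranged from -0.42 to 0.27 with 1 library left out. mlx ranged from -0.40 to 0.63. The cause was not tested. Among the member values under the alternatives, 144 of 169 kept direction and side of the threshold.

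The replicate number as a block, with the scale columns and melanoma libraries numbered 3 or 4 sharing 1 level, left mycn (2.91) and the high-count MYC row (-2.27) called. Deviations of same-numbered libraries from their group means correlated at -0.0186 for replicate 1 and 0.107 for replicate 2. Numbers 3 and 4 could not be checked, because the scale columns are not tied to them. The number is not taken as pairing the libraries. The lowest member counts were 26 for mxd4 and 66 for mxd1. With 4 libraries per group, the spread between libraries limits the precision.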
